A study of Mus musculus with 6 samples.

Results

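The genes described here are 6 that encode long-known structural RNAs of ribonucleoprotein particles: 7SK (Rn7sk), the 7SL RNA of the signal recognition particle (Rn7s1 and Rn7s2), the RNA of RNase MRP (Rmrp), the RNA of RNase P (Rpph1) and telomerase RNA (Terc). They were taken by gene name from the deposited tables, in which they made up 6 of 16310 rows. They were followed in small RNA libraries of exosomes (small vesicles shed by cells into the culture medium), with 3 libraries from mouse epidermal stem cells (ESC) and 3 from mouse dermal fibroblasts (Fb).

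The ESC were isolated from the dorsal skin of C57BL/6 mice of 3 weeks by rapid adhesion to collagen IV and grown in keratinocyte medium without serum. The Fb were taken from the dorsal skin of db/db mice of 14 weeks, a strain that lacks a working leptin receptor and becomes obese and diabetic. They grew in medium with serum and were then held serum-free for 2 days before collection. The strain label reads C57BL/6 for all 6 libraries, so the db/db origin of the Fb rests on the protocol text. Cell type, donor strain, age and medium changed together, and their parts in any difference cannot be told apart. The labels tie no library to a single animal or culture, so a p-value here measures only the spread among these 6 libraries, which may be technical. Each library holds the RNA of many vesicles together, so that fewer vesicles with an RNA and less of it in each vesicle cannot be told apart.

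7SK RNA holds the elongation factor P-TEFb inactive in the nucleus, and 7SL RNA is the scaffold on which ribosomes making secreted proteins are brought to the endoplasmic reticulum. RNase P trims the 5′ end of tRNA precursors, its close relative RNase MRP cuts precursor ribosomal RNA, and telomerase RNA carries the template for telomere repeats. All but telomerase RNA are made by RNA polymerase III in mammals. In a library selected for small RNA, reads on these genes come from fragments or from the ends of the full RNAs, and counts per gene do not separate these.

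ESC libraries held 9894485 to 11149046 assigned reads and Fb libraries 6914504 to 8691350. Reads outside the 471 tRNA rows made up 20.1% to 21.3% of the assigned reads in ESC libraries and 10.4% to 19.5% in Fb libraries. Mature miRNAs took 13.3% to 14.7% of all reads in ESC libraries and 0.613% to 2.05% in Fb libraries. Fb replicate 1 stood apart from the other Fb libraries, with the lowest share outside tRNA rows (10.4%), the lowest miRNA share (0.613%) and correlations of log2 CPM (counts scaled to a common library total) of 0.618 and 0.742 with Fb replicates 2 and 3, which correlated at 0.859 with each other. Correlations between ESC libraries were 0.901 to 0.925. The miRNA markers fitted the labels. The 7 epithelial miRNAs summed to 5.99% to 7.46% of miRNA reads in ESC libraries and 0.746% to 1.42% in Fb libraries, and the 5 mesenchymal miRNAs to 0.0128% to 0.0209% in ESC libraries and 10.6% to 18.1% in Fb libraries. Of 6 blood cell miRNAs, miR-142a-3p was at 0 in both groups, miR-223-3p in ESC and miR-150-5p in Fb libraries, and the list summed to at most 0.0143% of miRNA reads in any library.

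The 6 RNAs together were a minor component. Their reads numbered 1515, 1520 and 1693 in ESC replicates 1 to 3 and 4289, 1715 and 1862 in Fb replicates 1 to 3. That was 0.0136% to 0.0163% of all assigned reads in ESC libraries and 0.0197% to 0.0537% in Fb libraries. Every Fb library lay above every ESC library, and Fb replicate 1 was far above the other Fb libraries. Once tRNA and miRNA reads were both left out of the total, the groups overlapped, at 2349, 1989 and 2468 CPM in ESC libraries and 5485, 1134 and 1952 CPM in Fb libraries. Rmrp made up 40.7% to 49.3% of the summed reads in ESC libraries and 72.4% to 81.4% in Fb libraries. The order of the sum on all reads was thus mostly that of Rmrp, and not a trait shared by all 6 RNAs.

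Rmrp was the most abundant of the 6 RNAs in every library and, as a share of all reads, was higher in each Fb library than in any ESC library. Rpph1 took a larger share of the members' reads in each ESC library than in any Fb library. The summed 7SL rows differed little between groups as a share of all reads, Rn7sk had at most 41.0 reads in any library, and Terc was under the floor of 3 reads in all of them. No member passed edgeR's quasi-likelihood test at a Benjamini-Hochberg adjusted p of 0.05, where 11.8% of all RNAs tested passed. An unadjusted p under 0.05 was found for 3 members and for 22.4% of all RNAs tested. DESeq2 called 3 members and 18% of all RNAs tested, and limma-trend 0 members and 8.24%.

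**Figure D1:**
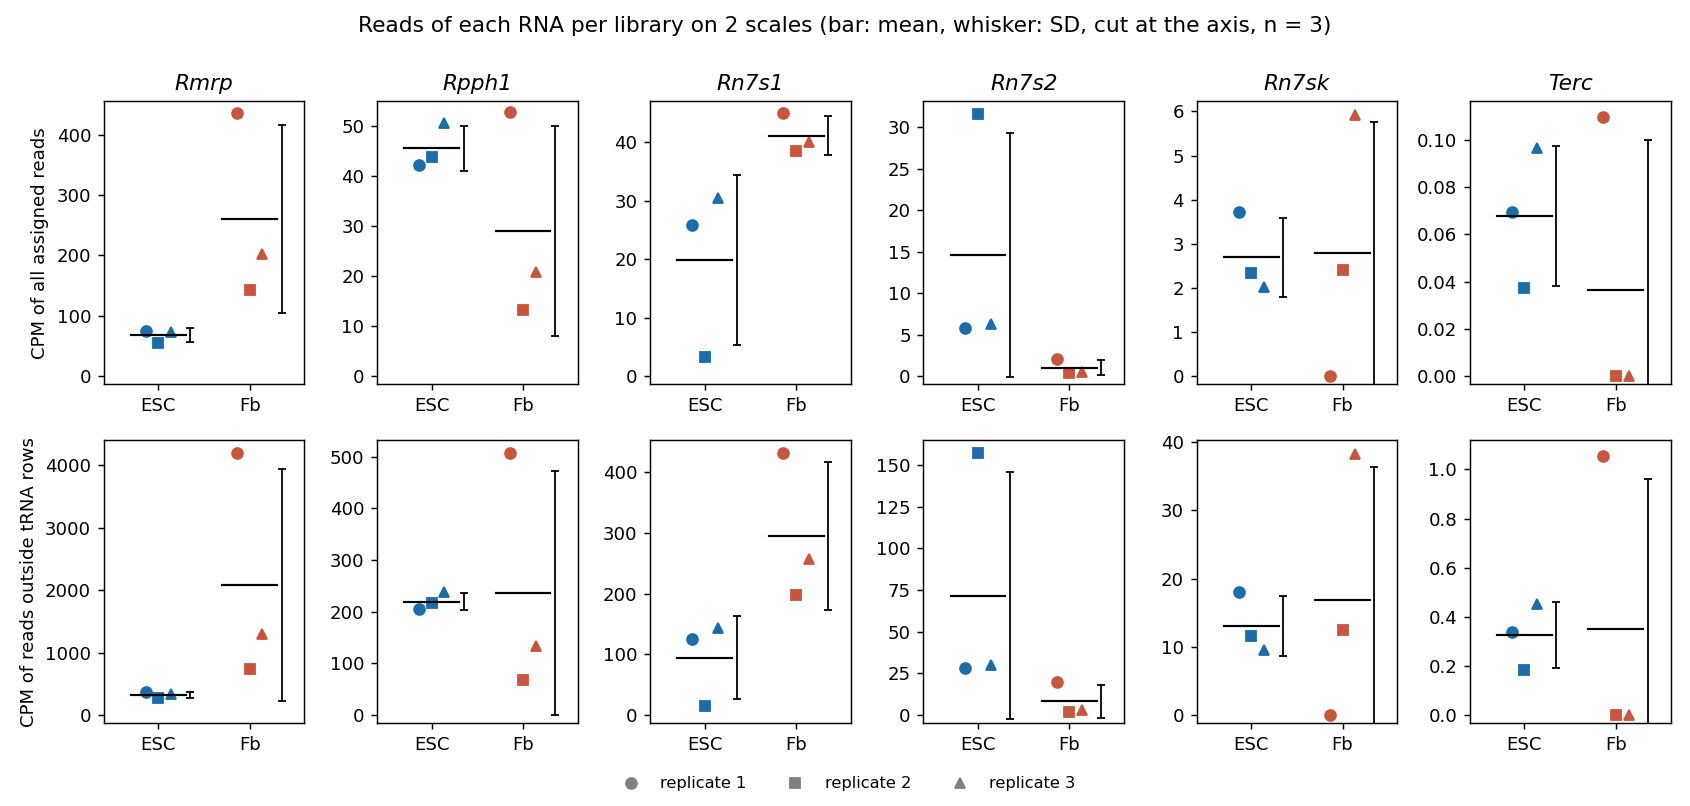
Reads of each RNA in each library as CPM of all assigned reads (upper row) and of reads outside tRNA rows (lower row), with ESC left of Fb; symbols mark the replicates, bars the means and whiskers the SD (n = 3). Rmrp lies at 55.5 to 75.4 CPM of all reads in ESC libraries and at 143 to 437 in Fb libraries, while for Rpph1 and Rn7sk the groups overlap and Terc stays under 1 CPM of all reads throughout.

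Rmrp, the RNA subunit of RNase MRP, has 271 bases and is encoded on the minus strand (chr4:43492788-43493058, GRCm38). GENCODE M21 lists a slightly longer gene of the same name around it, the tables hold 1 row of that name, and how the pair was combined is not given in the sources used here. Further, Ccdc107, a protein-coding gene, overlaps it on the other strand. The sequence is shown since, apart from the 7SL rows, Rmrp had the largest fold between the group means on all reads and outside tRNA rows, and since 124 of its bases are antisense to a Ccdc107 transcript, marked in capitals. Whether counting used the strand is not given in the sources used here.
Rmrp: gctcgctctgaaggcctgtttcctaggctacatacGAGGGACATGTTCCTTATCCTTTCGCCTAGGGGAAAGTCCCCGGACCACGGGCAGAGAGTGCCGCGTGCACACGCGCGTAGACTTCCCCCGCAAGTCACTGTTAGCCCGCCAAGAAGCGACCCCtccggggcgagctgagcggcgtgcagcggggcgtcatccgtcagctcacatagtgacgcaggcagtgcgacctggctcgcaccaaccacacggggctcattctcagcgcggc

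Rmrp had 75.4, 55.5 and 73.6 CPM of all reads in ESC replicates 1 to 3, against 437, 143 and 202 CPM in Fb replicates 1 to 3. Every Fb library was above every ESC library, and Fb replicate 1 was more than double either of the other Fb libraries. Rmrp averaged 68.2 ± 11.0 CPM in ESC exosomes and 261 ± 155 CPM in Fb exosomes (SD, n = 3 each), 3.82-fold higher in Fb, and the difference had the smallest p that an exact two-sided permutation test over 3 against 3 libraries allows (p = 0.1). As a share of reads outside tRNA rows, Rmrp had 366, 276 and 346 CPM in ESC libraries and 4201, 734 and 1303 CPM in Fb libraries, a 6.31-fold difference that again kept the groups apart. Without Fb replicate 1 the Fb mean was 2.53-fold the ESC mean on all reads and 3.09-fold outside tRNA rows, with no overlap. When miRNA reads were also taken out of the total, the ranges overlapped (1027 ± 189 CPM in ESC libraries and 2250 ± 1945 CPM in Fb, exact permutation p = 0.3).

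Rpph1, the RNA subunit of RNase P and the catalyst of its cleavage, has 319 bases and lies on the minus strand (chr14:50807449-50807767, GRCm38) and overlaps Ccnb1ip1 on the same strand for most of its length. Of its 296 stretches of 20 bases (20-mers), 220 occurred in no other counted row. The first 300 bases are shown (chr14:50807468-50807767) because the contrast between Rmrp and Rpph1 is the clearest pattern among the members; capitals mark the 218 bases within a 20-mer that another counted row also holds.
Rpph1: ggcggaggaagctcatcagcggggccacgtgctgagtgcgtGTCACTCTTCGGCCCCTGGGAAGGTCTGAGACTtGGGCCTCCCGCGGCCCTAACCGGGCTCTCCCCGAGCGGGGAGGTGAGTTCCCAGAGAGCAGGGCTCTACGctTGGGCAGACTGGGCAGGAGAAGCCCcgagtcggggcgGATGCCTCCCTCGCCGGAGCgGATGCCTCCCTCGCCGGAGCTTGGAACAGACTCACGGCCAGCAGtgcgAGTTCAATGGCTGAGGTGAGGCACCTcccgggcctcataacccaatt

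The one row that shared at least 10% of the Rpph1 20-mers added almost no reads, since Rpph1 with it summed to 1429 reads in ESC and to 680 reads in Fb libraries, the same rounded totals as Rpph1 alone. Rpph1 had 42.1, 43.7 and 50.6 CPM of all reads in ESC libraries, against 52.7, 13.2 and 20.8 CPM in Fb libraries. The ESC libraries lay close together, Fb replicate 1 was above all of them, and Fb replicates 2 and 3 were below all of them. Rpph1 averaged 45.5 ± 4.51 CPM in ESC libraries and 28.9 ± 20.9 CPM in Fb libraries (exact permutation p = 0.4). Outside tRNA rows the means were 220 ± 16.7 CPM in ESC libraries and 236 ± 236 CPM in Fb (exact permutation p = 1.0). Without Fb replicate 1, Rpph1 was higher in every ESC library, 2.67-fold on all reads and 2.17-fold outside tRNA rows, so that on those totals 1 library decides whether the groups overlap. With tRNA and miRNA reads both left out of the total, the groups did not overlap with all 6 libraries. Rpph1 then had 647, 637 and 765 CPM in ESC libraries and 538, 76.0 and 151 CPM in Fb libraries. That was 2.68-fold higher in ESC (exact permutation p = 0.1, the smallest possible). The share of all RNAs without overlap was not computed for this total. A change of total moves all RNAs of a library by the same factor, and the summed 7SL rows were also higher in ESC on it.

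Because both RNAs were counted in the same library, their ratio is free of the choice of total, although it was taken up after the values were seen. The ratio of Rmrp to Rpph1 reads was 1.79, 1.27 and 1.45 in ESC libraries and 8.29, 10.8 and 9.70 in Fb libraries. The groups were far apart, and Fb replicate 1, which stood apart in miRNA share, had the lowest ratio of the Fb libraries. The mean ratio was 1.51 ± 0.263 in ESC and 9.60 ± 1.25 in Fb exosomes. With each library left out in turn, the Fb mean stayed 5.92 to 7.04 times the ESC mean. Rmrp and Rpph1 themselves shared 51.7% of aligned positions, and Rmrp shared no 20-mer with any other counted row.

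**Figure D2:**
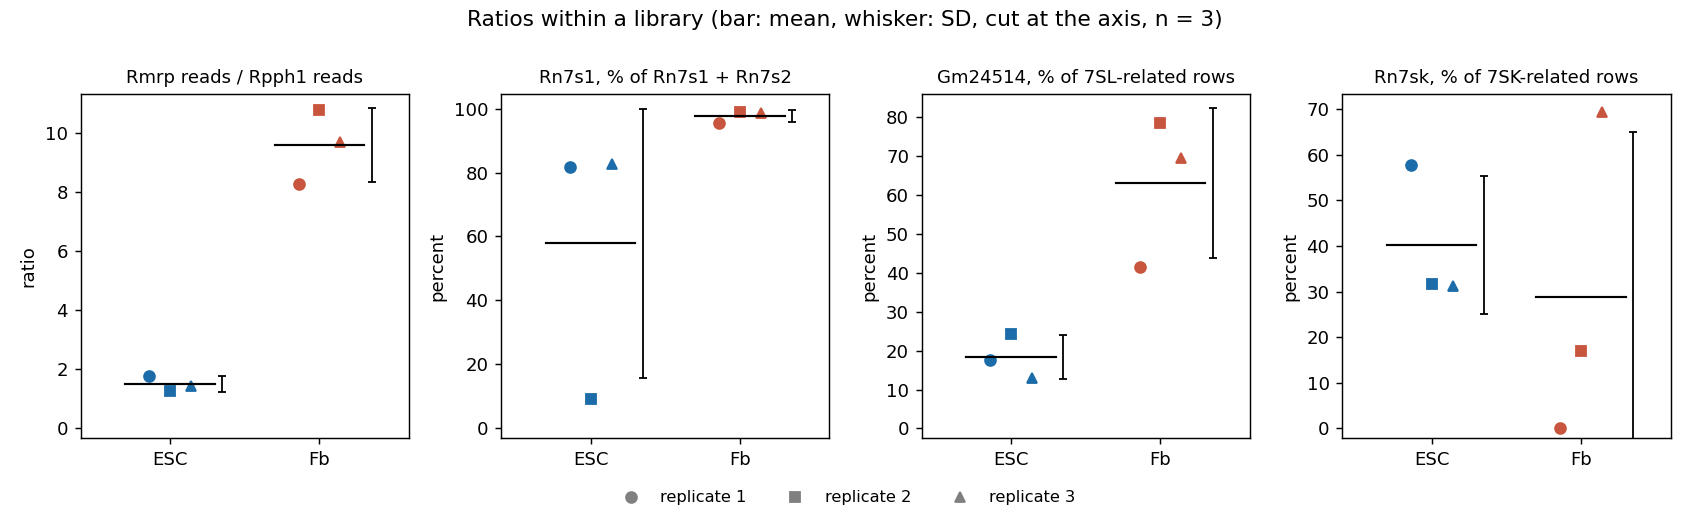
Ratio of Rmrp to Rpph1 reads and, in percent, the part of Rn7s1 in the 7SL pair, of Gm24514 in the rows of 7SL sequence and of Rn7sk in the rows of 7SK sequence, in each library, ESC left of Fb, with symbols for the replicates, bars for the means and whiskers for the SD (n = 3). Rmrp to Rpph1 lies between 1.27 and 1.79 in ESC libraries and between 8.29 and 10.8 in Fb libraries, and Rn7s1 is the minor row of its pair in ESC replicate 2 alone.

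The make-up of the 6 RNAs' reads rests on the same counts and restates the contrast of Rmrp and Rpph1. Rmrp took 49.3%, 40.7% and 45.1% of them in ESC libraries and 81.4%, 72.4% and 75.0% in Fb libraries. Rpph1 took 27.5%, 32.0% and 31.0% in ESC libraries and 9.82%, 6.71% and 7.73% in Fb libraries. Neither RNA's ranges overlapped, and each difference had the smallest possible p of an exact permutation test (p = 0.1); since the shares of a library sum to 100%, they are not independent of each other. 7SL took 22.9% ± 2.42 in ESC and 14.5% ± 5.49 in Fb exosomes, without overlap, and Rn7sk 1.79% ± 0.599 in ESC and 1.14% ± 1.10 in Fb exosomes, with overlap. With 7SL left out of the sum, Rmrp took 58.4% ± 3.75 in ESC and 89.2% ± 0.907 in Fb exosomes, and Rpph1 39.3% ± 4.20 in ESC and 9.40% ± 1.23 in Fb exosomes (SD, n = 3 each).

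**Figure D3:**
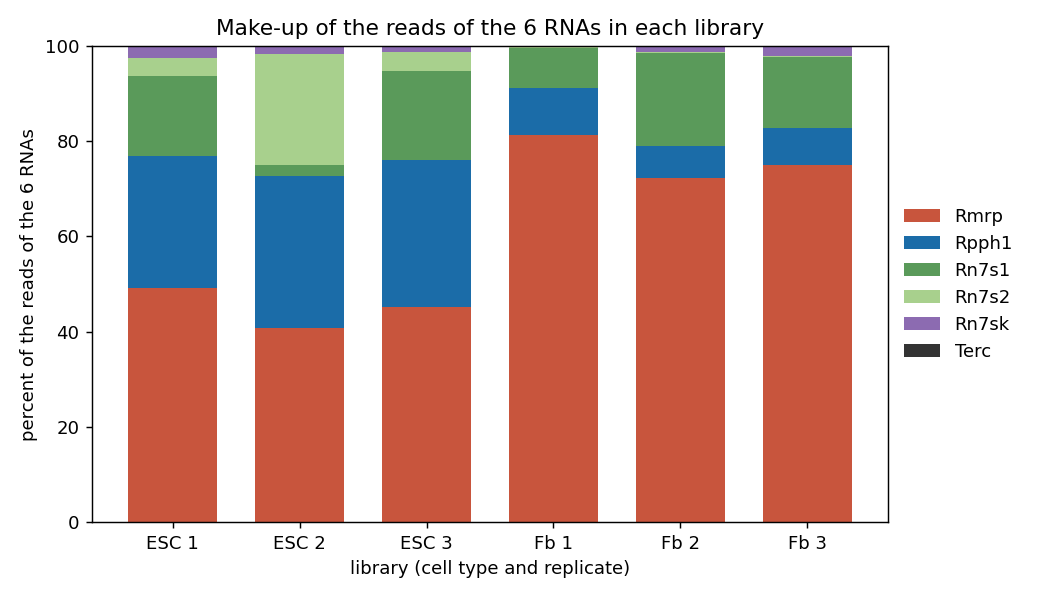
Share of each RNA in the summed reads of the 6 RNAs, in percent, for the ESC libraries and then the Fb libraries. Rmrp takes 40.7% to 49.3% in ESC libraries and 72.4% to 81.4% in Fb libraries, and Rpph1 27.5% to 32.0% in ESC libraries and 6.71% to 9.82% in Fb libraries.

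Rn7s1 and Rn7s2, the mouse genes of 7SL RNA, lie on chromosome 12 in opposite orientation. Their annotated transcripts were identical over all 300 bases, so no read from within them can tell the genes apart. The counts were nevertheless split between the rows in ways that differed between libraries. Rn7s1 received 81.6%, 9.21% and 82.8% of the reads on the pair in ESC libraries and 95.6%, 98.9% and 98.7% in Fb libraries. ESC replicate 2 gave most of its 7SL reads to Rn7s2, the reverse of the other 5 libraries. Rn7s1 had 256, 35.7 and 316 reads in ESC libraries and 359, 334 and 276 reads in Fb libraries. Rn7s2 had 57.8, 352 and 65.8 reads in ESC libraries and 16.5, 3.62 and 3.57 reads in Fb libraries. Taken singly, Rn7s1 averaged 19.9 ± 14.6 CPM of all reads in ESC and 41.1 ± 3.39 CPM in Fb exosomes, and Rn7s2 14.6 ± 14.7 CPM in ESC libraries and 1.00 ± 0.926 CPM in Fb libraries. Without ESC replicate 2 the log2 ratio of the Rn7s2 means was 2.61, against 3.87 with it. Both rows kept the groups apart, in opposite directions, but with identical sequences these values rest on how the authors' counting assigned shared reads and are uncertain.

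The sum of the pair does not depend on that division. 7SL had 31.7, 34.8 and 36.9 CPM of all reads in ESC libraries and 47.0, 38.9 and 40.5 CPM in Fb libraries. Every Fb library was above every ESC library, by a narrow margin, and the mean was 34.5 ± 2.59 CPM in ESC libraries and 42.1 ± 4.31 CPM in Fb libraries, 1.22-fold higher in Fb (exact permutation p = 0.1, the smallest possible) and 1.15-fold without Fb replicate 1. Outside tRNA rows the means were 167 ± 11.0 CPM in ESC libraries and 304 ± 132 CPM in Fb, and with miRNA reads also left out of the total the order turned, at 517 ± 36.3 CPM in ESC libraries and 332 ± 133 CPM in Fb. The direction for 7SL thus depends on which reads make up the total.

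Other rows hold stretches of the 7SL sequence, and 6 of them shared at least 10% of its 20-mers. None of the 281 20-mers of Rn7s1 was unique to it. Of these related rows, picked out after their values were seen, Gm24514 was the most abundant; it matched Rn7s1 at 85.1% of aligned positions. Gm24514 had 86.7, 145 and 72.2 reads in ESC libraries and 320, 1397 and 718 reads in Fb libraries, all Fb libraries above all ESC libraries. On the log2 scale ESC over Fb was -5.73 (SE 1.47, edgeR adjusted p = 0.0305), but the call was lost with limma-trend (adjusted p = 0.0821), with the replicate number as a block and when any library other than Fb replicate 1 was left out. Without any ESC library or Fb replicate 3, edgeR called 0 RNAs of any kind. The Gm24514 call was kept with library totals alone (edgeR adjusted p = 0.0187), upper-quartile factors and DESeq2. Gm25687, another related row, had 11.9, 3.33 and 21.2 reads in ESC libraries and 27.0, 39.0 and 25.8 in Fb libraries. Its log2 fold change was -3.68 (edgeR adjusted p = 0.0391). This call was lost in the fits that lost the Gm24514 call and also with library totals alone (edgeR adjusted p = 0.447). The third related row above 10 reads, Gm23153, ran the other way in reads. It had 76.1, 59.3 and 73.0 reads in ESC libraries and 45.3, 1.00 and 4.00 reads in Fb libraries. As a share of all reads its groups overlapped, and outside tRNA rows Fb replicate 1 was the highest library (54.6 CPM). The main fit did not call it (log2 fold change 1.29, edgeR adjusted p = 0.219).

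Summed with these rows, the 8 rows of 7SL sequence had 52.1 ± 2.17 CPM of all reads in ESC and 150 ± 54.2 CPM in Fb exosomes, 2.88-fold higher in Fb. Outside tRNA rows the sum was 252 ± 12.8 CPM in ESC libraries and 981 ± 64.5 CPM in Fb libraries, with narrow spread in both groups. With miRNA reads also left out of the total, the difference shrank to 1.38-fold. The means were then 783 ± 21.6 CPM in ESC libraries and 1082 ± 95.1 CPM in Fb libraries, without overlap. Rn7s1 and Rn7s2 made up 63.9%, 64.9% and 69.2% of the sum in ESC libraries and 48.7%, 19.0% and 27.1% in Fb libraries. Gm24514 made up 17.6%, 24.3% and 13.1% in ESC libraries and 41.5%, 78.5% and 69.6% in Fb libraries. Fitted as 1 row, the sum had a change of -3.71 on the log2 scale (SE 1.25), with an edgeR adjusted p of 0.0942, which did not pass the threshold.

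Rn7sk, the 7SK RNA, has 331 bases on the minus strand (chr9:78175303-78175633, GRCm38). The nearest row in reads was Gm26315, a GENCODE misc_RNA gene on the minus strand (chr2:7076094-7076414) that matched it at 84.0% of aligned positions. The first 300 bases of both are shown because most of their length cannot be told apart by sequence; capitals mark bases within 20-mers that the other lacks. The Rn7sk transcript holds 3 copies of GATC, the motif of the HEXIM-binding hairpin in human 7SK, the first at position 13.
Rn7sk: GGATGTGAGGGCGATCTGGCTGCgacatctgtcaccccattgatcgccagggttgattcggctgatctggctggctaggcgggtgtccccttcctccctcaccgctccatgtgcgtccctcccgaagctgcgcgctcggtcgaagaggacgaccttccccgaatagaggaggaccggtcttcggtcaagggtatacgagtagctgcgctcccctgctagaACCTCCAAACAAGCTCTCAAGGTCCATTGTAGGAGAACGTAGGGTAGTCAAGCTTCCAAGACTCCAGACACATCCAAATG
Gm26315: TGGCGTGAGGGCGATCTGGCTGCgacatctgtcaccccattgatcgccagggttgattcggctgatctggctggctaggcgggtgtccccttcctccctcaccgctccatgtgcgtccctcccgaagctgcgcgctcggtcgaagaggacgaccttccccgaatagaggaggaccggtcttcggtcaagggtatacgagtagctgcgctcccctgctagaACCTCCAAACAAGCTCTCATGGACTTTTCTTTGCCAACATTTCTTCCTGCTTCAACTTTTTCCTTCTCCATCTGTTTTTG

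Rn7sk had 36.8, 26.0 and 21.0 reads in ESC libraries and 0, 21.0 and 41.0 reads in Fb libraries. The Fb libraries spanned the ESC range on both sides, and in Fb replicate 1 the count of 0 allows up to 0.375 CPM of all reads by the floor of 3 reads, for counting error only and not for reads assigned to a related row. The means were 2.69 ± 0.903 CPM in ESC libraries and 2.78 ± 2.98 CPM in Fb libraries (exact permutation p = 0.9). Gm26315 had 26.1, 51.0 and 44.2 reads in ESC libraries and 63.2, 101 and 18.0 reads in Fb libraries, so the library without Rn7sk reads still held reads on 7SK sequence. Over the 11 rows that share at least 10% of the 7SK 20-mers, the sum was 6.75 ± 0.515 CPM of all reads in ESC and 10.4 ± 3.28 CPM in Fb exosomes, higher in every Fb library. With tRNA and miRNA reads both left out of the total the order turned, at 101 ± 5.12 CPM in ESC libraries and 76.4 ± 12.8 CPM in Fb libraries, again without overlap. Over all 73 rows that share any 20-mer, the groups overlapped as shares of all reads. Rn7sk itself made up 57.8%, 31.7% and 31.2% of the sum over 11 rows in ESC libraries and 0%, 17.1% and 69.5% in Fb libraries. Only 67 of the 312 Rn7sk 20-mers were in no other counted row.

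Terc, the telomerase RNA, is annotated in GENCODE M21 with 423 bases on the minus strand (chr3:96414437-96414859, GRCm38). The first 60 annotated bases are shown for the template, in capitals, which starts at position 28 of the annotated transcript.
Terc: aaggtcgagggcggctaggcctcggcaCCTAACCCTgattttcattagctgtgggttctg

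Terc held 0.688, 0.417 and 1.00 reads in ESC libraries and 0.876, 0 and 0 reads in Fb libraries. All 6 values were under the floor of 3 reads, which corresponds to 0.269 to 0.303 CPM of all reads in ESC libraries and 0.345 to 0.434 CPM in Fb libraries. No difference was detectable at this depth, and Terc was left out of the test by the filter on low counts. Intervals and floors cover counting error only, since the reads carry no molecular identifiers.

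Levels were set side by side between genes after division by annotated transcript length. Whether reads scale with length in a library of fragments was not tested, and reads of Rn7sk and 7SL may lie on related rows. In ESC exosomes the level per kilobase was 252 ± 40.6 CPM for Rmrp, 143 ± 14.2 for Rpph1, 115 ± 8.62 for 7SL, 8.13 ± 2.73 for Rn7sk and 0.160 ± 0.0699 for Terc. In Fb exosomes it was 961 ± 574 CPM for Rmrp, 140 ± 14.4 for 7SL, 90.6 ± 65.6 for Rpph1, 8.40 ± 9.01 for Rn7sk and 0.0863 ± 0.150 for Terc (SD, n = 3 each). Rmrp was highest and Rn7sk and Terc lowest in both groups. Rpph1 and 7SL, neighbours in the order, lay within their spread of each other in Fb exosomes.

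In the fit over all 2999 RNAs that passed the count filter, 5 of the 6 members were tested. The log2 fold change of ESC over Fb was -3.32 for Rmrp (SE 1.03, edgeR adjusted p = 0.0679), 2.77 for Rn7s2 (SE 0.83, adjusted p = 0.0609) and -2.89 for Rn7s1 (SE 1.15, adjusted p = 0.162). It was -2.15 for Rn7sk (SE 1.27, edgeR adjusted p = 0.377), -0.59 for Rpph1 (SE 0.74, adjusted p = 0.736) and -2.12 for the summed 7SL pair (SE 0.95, adjusted p = 0.223). The edgeR test called 0 of the 5 members, where it called 11.8% of all RNAs tested (3.63% higher in ESC and 8.17% higher in Fb). The 3 members with an unadjusted p under 0.05, and those DESeq2 called, were Rmrp, Rn7s1 and Rn7s2. Since Rn7s1 and Rn7s2 have identical transcripts, they are not separate results. The median log2 fold change was -2.15 over the 5 members and 0.07 over all RNAs tested. It was -0.04 over the members and 0.81 over all RNAs with library totals alone, and -0.37 over the members and 0.06 over all RNAs with totals on rows outside tRNA genes. In each of these settings the member median is the value of Rn7sk, a row of at most 41.0 reads. It thus does not describe a shift of the members as a set. Over all alternatives the adjusted p ranged from 0.000333 to 0.354 for Rmrp, from 0.00192 to 0.289 for Rn7s2 and from 0.0209 to 0.667 for Rn7s1. It ranged from 0.00230 to 0.9999 for Rn7sk and from 0.284 to 0.9999 for Rpph1. For the summed 7SL pair it ranged from 0.00754 to 0.9999, over 10 alternatives against 15 or 16 for each member tested.

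The fitted changes differ from the ratios of CPM through TMM, the scaling by a trimmed mean over RNAs, which gave factors of 1.62, 1.63 and 1.63 for ESC libraries and 2.18, 0.231 and 0.464 for Fb libraries. With library totals alone the median of all RNAs lay at 0.81, the log2 fold change of Rpph1 turned to 0.65 and that of Rmrp was -1.93, so that Rpph1 lay just below that median and Rmrp well below it. Without Fb replicate 1, whose factor differs most from the other Fb libraries, edgeR called 3 members: Rmrp at -3.66 (adjusted p = 0.00174), Rn7sk at -2.82 (adjusted p = 0.00230) and Rn7s1 at -3.36 (adjusted p = 0.0236), with 17.3% of all RNAs called. As a share of reads without that library, Rn7sk was 1.55-fold higher in Fb on all reads and 1.94-fold outside tRNA rows. Its groups overlapped on both totals. The summed 7SL pair had -2.60 without Fb replicate 1 (edgeR adjusted p = 0.00754). In the fit of rows outside tRNA genes with TMM factors, 0 members were called by edgeR and 8.89% of all RNAs were.

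**Figure D4:**
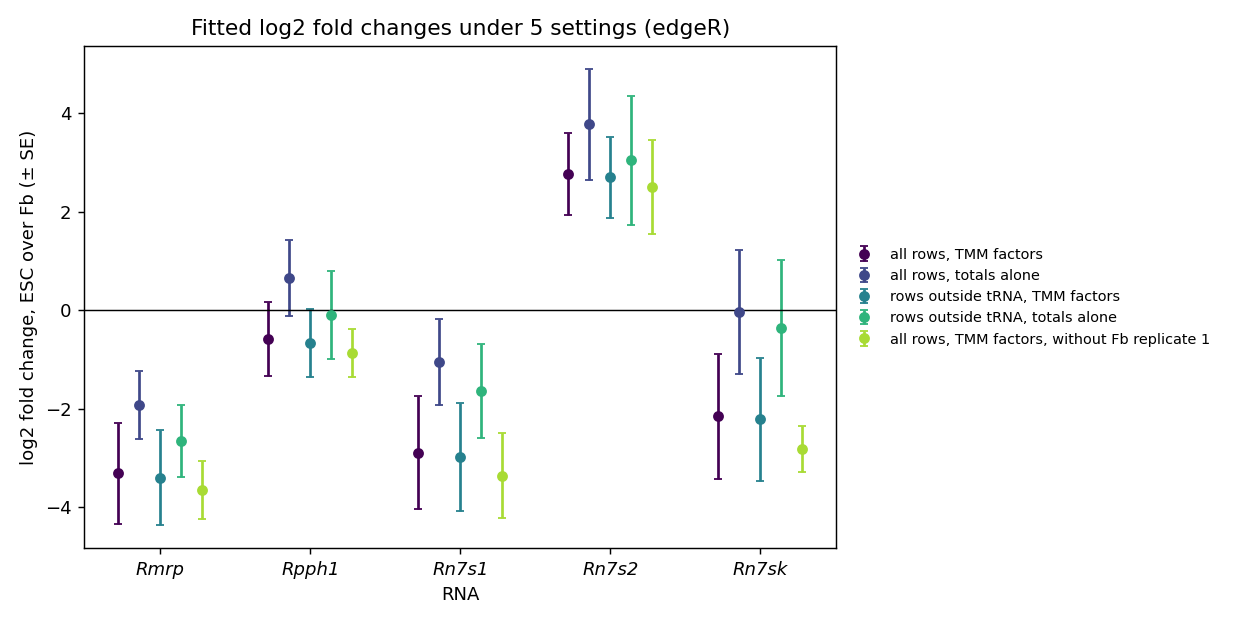
Log2 fold change of ESC over Fb for the 5 tested members in 5 edgeR fits that differ in the rows fitted, the scaling and the use of Fb replicate 1; bars are SE. Rmrp is below 0 in every setting shown and Rn7s2 above 0, while Rpph1 changes side, between -0.87 and 0.65.

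As a count over members, Rn7s1 and Rmrp (higher in Fb) and Rn7s2 (higher in ESC) kept the groups from overlapping on both totals, 3 of the 5 tested. Rn7s1 and Rn7s2 have identical transcripts, so their opposite directions rest on the division of shared reads and are not separate results. With tRNA and miRNA reads both left out of the total, Rmrp and Rn7s1 overlapped between groups, while Rpph1 and Rn7s2 were higher in every ESC library. The share of all RNAs without overlap was not computed for that total, so these orders have no background here. Among all RNAs tested, 31.2% had groups that did not overlap on all reads, 22.3% with ESC higher and 8.87% with Fb higher, and 19.8% on reads outside tRNA rows, 12.5% with ESC higher and 7.33% with Fb higher.

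Other RNA polymerase III transcripts give the setting for these values. Of 8 names listed, 7 had a row, and Rnu6, Rn5s and Bc1 did not pass the count filter. With no count filter Bc1, a brain cytoplasmic RNA, was called higher in Fb (log2 fold change -4.15, edgeR adjusted p = 2.00e-05), from at most 2.50 reads in an ESC library and 3.00, 8.00 and 16.3 reads in Fb libraries. Vaultrc5, a vault RNA, was higher in ESC, at 433 ± 173 CPM of all reads in ESC libraries and 18.1 ± 14.5 CPM in Fb libraries, a log2 fold change of 3.45 (SE 0.98, adjusted p = 0.0487 by edgeR). It passed narrowly in this fit. Vaultrc5 also passed with library totals alone (log2 fold change 4.58, edgeR adjusted p = 0.00550), upper-quartile factors, DESeq2 and limma-trend (adjusted p = 0.0354). It did not pass without any one of the libraries other than Fb replicate 1, nor with the replicate number as a block. Without any ESC library or Fb replicate 3, edgeR called 0 RNAs of any kind. Rny1, a Y RNA that binds the Ro protein, had 6171 ± 501 CPM in ESC libraries and 2068 ± 531 CPM in Fb libraries, yet its fitted change was -0.26 (edgeR adjusted p = 0.956), or 1.58 with library totals alone (adjusted p = 0.0736). Rny3, another Y RNA, had 19.2 CPM in ESC libraries and 32.5 CPM in Fb libraries, with overlap, and did not pass (edgeR adjusted p = 0.126). The 5S ribosomal RNA rows summed to 513 ± 120 CPM in ESC libraries and 1802 ± 1328 CPM in Fb libraries, also with overlap (edgeR adjusted p = 0.145). The sum passed, at -2.56, with library totals on rows outside tRNA genes (edgeR adjusted p = 0.0296, range over its 4 fits 0.0296 to 0.145). In the fit of all rows, 7 of 19 single 5S rows tested were called, beside 11.8% of all RNAs. The number was 4 with library totals alone (11.7% of all RNAs), 3 with limma-trend (8.24%) and 2 with the replicate block (5.97%). Whether these rows share reads was not tested. Genes for 28 protein partners of these particles had 0 rows in these tables of non-coding RNA.

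By likeness of centred log2 CPM outside tRNA rows over the 6 libraries, the rows nearest to Rmrp among 2721 compared were Gm23458, an snRNA gene (root mean square difference 0.268), Gm25894, a snoRNA gene (0.285), and Snord73a, a C/D box snoRNA (0.300). Gm23458 and Gm25894 held at most 24.5 and 25.0 reads in any library. Snord73a had 46.0, 44.0 and 36.0 reads in ESC libraries and 332, 99.0 and 85.0 reads in Fb libraries. Those nearest to Rpph1 were 9230112J17Rik (0.0458), Gm14329 (0.120) and Mir9-3hg (0.125), all lincRNA genes, and 9230112J17Rik had 16.8, 20.3 and 21.4 reads in ESC libraries and 18.3, 4.00 and 5.83 in Fb libraries. Rn7s1 was nearest to its relative Gm25687 (0.477), then to Gm47352 (0.729) and Gm25894 (0.730). For Rn7s2 the nearest were Gm26264 (0.496), AC125396.2 (0.558) and 4930515B02Rik (0.569), and for Rn7sk miR-29c-3p (0.703), let-7c-2-3p (0.711) and let-7f-2-3p (0.793). Gm26264 and AC125396.2 had 0 reads in Fb replicates 2 and 3. The profiles of Rn7s1 and Rn7s2, and so their nearest rows, rest on how reads shared by identical transcripts were divided.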

How the data were processed

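Exosomes of cultured ESC and Fb were measured as 3 small RNA libraries each, and the titles gave the groups. Per the labels' protocols, vesicles were collected by spinning, filtering, concentrating and ultracentrifuging the medium, their RNA was bound to columns, and CleanTag libraries were cut to size on a gel. FastQC, cutadapt and GRCm38 are named, per the submitters' processing notes. Which aligner, counter and strand setting were used, and how reads with several matches were handled, is not given in the sources used here. Estimated counts per RNA, as deposited by the authors, were the values of the files. Between 82.6% and 92.2% of a library's nonzero values were fractional. They were rounded to whole numbers for the count models.

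The fit covered the whole table and used the quasi-likelihood test of edgeR 4.0.16 (R 4.3.3) with TMM factors and group as its term. Low rows were dropped by filterByExpr (minimum count 10, minimum total 15), and p was adjusted by Benjamini-Hochberg over all rows tested, with a threshold of 0.05. The SE is the absolute log2 fold change over the square root of F. A positive log2 fold change is higher in ESC exosomes. Alternatives were DESeq2 1.42.0, limma-trend (limma 3.58.1), other scalings, filters and totals, a block for the replicate number, and each library left out. Shares were tested with exact two-sided permutation tests in scipy 1.17.1. Sequences, positions and shared 20-mers came from GENCODE M21, which has the files' build. The 7SL sequence is not reported here. Related rows share at least 10% of a member's 20-mers. The text names the members, the 3 rows most like each member with a mean of at least 10 reads, and listed polymerase III transcripts; related rows were added after their values were seen. The fits were tested on simulated counts. The members and lists were chosen with earlier results of these data known.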

Additional observations from a re-analysis of the deposited data

How the results depend on the processing

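The number of members called by edgeR, 0 in the main setting, was 1 with upper-quartile factors (Rn7s2, log2 fold change 2.99; 13.6% of all RNAs called), 1 with no count filter (Rn7s2, 3.07; 6.4%), 2 with a minimum count of 50 (Rn7s2, 3.60, and Rmrp, -2.12; 27.9%), 1 with library totals on rows outside tRNA genes (Rmrp, -2.66; 6.49%) and 1 on rows outside tRNA and miRNA rows, an alternative added after the data were seen (Rmrp, -3.37; 7.15%). DESeq2 called 3 (Rmrp -3.36, Rn7s1 -2.94, Rn7s2 2.74; 18%). With each library left out, 0 to 3 were called, the 3 without Fb replicate 1; the log2 fold change then ranged from -2.82 to -1.39 for Rn7sk, -3.38 to -2.10 for Rn7s1, -3.66 to -2.90 for Rmrp, 1.55 (without ESC replicate 2) to 3.12 for Rn7s2, -0.87 to -0.28 for Rpph1 and -2.60 to -1.33 for the 7SL pair. Without any ESC library or Fb replicate 3 edgeR called 0 RNAs of any kind, so these settings say little of the members. Rpph1 reversed to 0.65 with library totals alone and to 0.51 with a minimum count of 50, passing in neither. The cause was not tested.

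The log2 ratio of mean 7SL shares moved to -0.87 outside tRNA rows and to 0.64 outside tRNA and miRNA rows, from the changed total. The Rpph1 share, ESC minus Fb, moved to 29.9 percentage points without 7SL in the sum. Terc has no ratio without Fb replicate 1, where Fb libraries are at 0. Of all RNAs, edgeR called 354 in the main setting, 697 without a filter, 192 with library totals outside tRNA genes and 589 without Fb replicate 1, and DESeq2 541. Deviations of same-numbered replicates correlated at 0.00961, 0.088 and -0.00157. With 3 libraries per group these values cannot tell whether the replicate numbers pair the libraries. In the fit with the replicate block 0 members and 179 RNAs were called, with Rmrp at -3.19. Depth limits Terc.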
